A study of Rattus norvegicus with 9 samples.

Results

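Nr1i2, the gene of the pregnane X receptor, was examined together with 9 other genes of receptors that sense foreign compounds and lipids, in prostates of rats with experimental benign prostatic hyperplasia (BPH). The 10 genes are Nr1i2, Nr1i3, Ahr, Arnt, Nr1h2, Nr1h3, Nr1h4, Rxra, Rxrb and Vdr, out of 15163 gene symbols on the arrays. Their probes were found through the RefSeq accession of each probe. This gave 12 of 30356 probes, as Nr1i3 and Nr1h4 had a second probe each, and those second probes were not well above background on any of the 9 arrays. The genes were chosen with results of these arrays known. Nr1i2 had been among the genes with the largest rise in rats given ghrelin compared to BPH rats, so the values of BPH+ghrelin against BPH are given for the 10 genes as a description, without a test.

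The pregnane X receptor and the constitutive androstane receptor (Nr1i3) are nuclear receptors that bind drugs, steroids and bile acids and switch on genes of drug metabolism, best known from liver and intestine. They bind DNA together with a retinoid X receptor, as do the liver X receptors (Nr1h2 and Nr1h3), which sense oxidised cholesterol, the bile acid receptor FXR (Nr1h4) and the vitamin D receptor (Vdr). The aryl hydrocarbon receptor (Ahr) belongs to another family, binds aromatic hydrocarbons and pairs with the protein encoded by Arnt.

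Arrays covered 3 groups of male Sprague Dawley rats, 6 weeks old at the start, with 3 arrays per group. Sham rats had a sham operation and received corn oil and an oral vehicle. BPH rats were castrated and received dihydrotestosterone (3 mg/kg daily, subcutaneously, for 4 weeks) and the oral vehicle. BPH+ghrelin rats were castrated, received the same dihydrotestosterone, and received oral ghrelin (20 nmol/kg daily) for the last 2 weeks, while a legend of the study gives another dose and route of ghrelin. Castration and dihydrotestosterone are therefore present in both BPH groups, and BPH against sham compares both interventions at once. The study kept 8 rats per group, and the sources do not state which 3 of them were used, or from which lobe the RNA came. The arrays are numbered without an animal behind each number, so p values measure the spread between arrays.

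Median raw signals ranged from 40.9 to 133, and sham replicate 2 had the lowest. That array had 61.4% of its probes well above background, and the other arrays had 69.5% to 75.05%. For 8 of the 10 genes, sham replicate 2 held the highest or the lowest of the sham values. It was the middle sham array at 8.4% of the 17858 probes detected on all arrays, so the count is not particular to these genes. All BPH arrays were scanned together with BPH+ghrelin replicate 1 (scan 1), BPH+ghrelin replicates 2 and 3 shared a scan with sham replicates 1 and 2 (scan 2), and sham replicate 3 was scanned alone. Every group held an array with signals between those of the other two at most of the 17858 probes detected on all arrays, which was sham replicate 3 (77.0%), BPH replicate 2 (74.8%) and BPH+ghrelin replicate 2 (72.3%). The sources do not state whether each array holds the RNA of its own animal, and the SDs and p values given here take the 3 arrays of a group as independent. The differences of the 10 genes, the calls among listed genes and the counts of calls were repeated without these 3 arrays. Prostate genes were present on all 9 arrays, including Pbsn (probasin), Hoxb13, Scgb1d2 and Sbp. Levels are log2 signals after quantile normalisation over the 9 arrays. Genes entered a comparison with a probe detected well above background on 3 or more of its 6 arrays, and a gene was called if its adjusted p in limma was under 0.05 (Benjamini-Hochberg over all genes tested).

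Expression of Nr1i2 was lowest in BPH prostates, intermediate in sham prostates and highest in BPH+ghrelin prostates, and all 9 arrays showed it well above background. The log2 signal amounted to 5.83, 5.65 and 5.43 on the sham arrays (5.64 ± 0.20; SD, n = 3). It was 4.44, 4.65 and 5.07 on the BPH arrays (4.72 ± 0.32; SD, n = 3). It was 7.05, 6.77 and 6.36 on the BPH+ghrelin arrays (6.73 ± 0.35; SD, n = 3). No array of a group overlapped with an array of another group, neither between BPH and sham nor between sham and BPH+ghrelin. Before normalisation, the signals were 62.2, 24.2 and 39.7 (sham), 31.1, 35.7 and 39.0 (BPH) and 123, 108 and 71.6 (BPH+ghrelin), so that sham and BPH did overlap on the raw scale, whereas the BPH+ghrelin arrays remained above all others.

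The difference of BPH+ghrelin minus BPH was 2.00 on the log2 scale (standard error 0.23), which is 4.01-fold. It had rank 42 from the highest among 19749 genes tested, which include entries without a gene symbol, a position that the choice of Nr1i2 had used. Within scan 1, BPH+ghrelin replicate 1 was 2.33 above the mean of the 3 BPH arrays. Leaving out 1 array gave differences of 1.84 to 2.19, and without the 3 middle arrays it was 1.95. With normexp background correction, which adds an offset of 50 to every signal, it was 0.77. Differences of dim genes are smaller on that scale.

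Compared to sham, Nr1i2 was higher in BPH+ghrelin by 1.09 (standard error 0.23, 2.13-fold, adjusted p 0.0329 in limma), and all 3 BPH+ghrelin arrays exceeded all 3 sham arrays. This comparison shares the BPH+ghrelin arrays with the difference by which Nr1i2 had been chosen and is no independent support for it. Within scan 2, the difference was 0.82 with 2 arrays per group, and with scan as a fixed block its adjusted p was 0.277. The call was also lost without BPH+ghrelin replicate 1 (difference 0.93, adjusted p 0.0969), BPH+ghrelin replicate 2 (1.07, adjusted p 0.129) or sham replicate 3 (0.99, adjusted p 0.124), and without the 3 middle arrays (0.97, adjusted p 0.711). It was lost as well with a replicate block (adjusted p 0.0828), without a filter (0.053) and with only the 6 arrays (0.0509). The difference was above 0 in all of these fits.

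Nr1i2 did not pass the test in BPH against sham, where the difference was -0.91 (standard error 0.23, adjusted p 0.0622 in limma, 95% interval -1.44 to -0.39). All 3 BPH arrays were below all 3 sham arrays. This comparison shares the BPH arrays with the difference by which Nr1i2 had been chosen and is no independent support for it. No BPH array shared a scan with a sham array. With scan as a fixed block, which links them through the BPH+ghrelin arrays, the difference was -1.51 (adjusted p 0.480), and with scan as a random block it was -0.81 (adjusted p 0.00922). With arrays scaled to their 75th percentile it was -1.03 (adjusted p 0.0487).

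**Figure D1:**
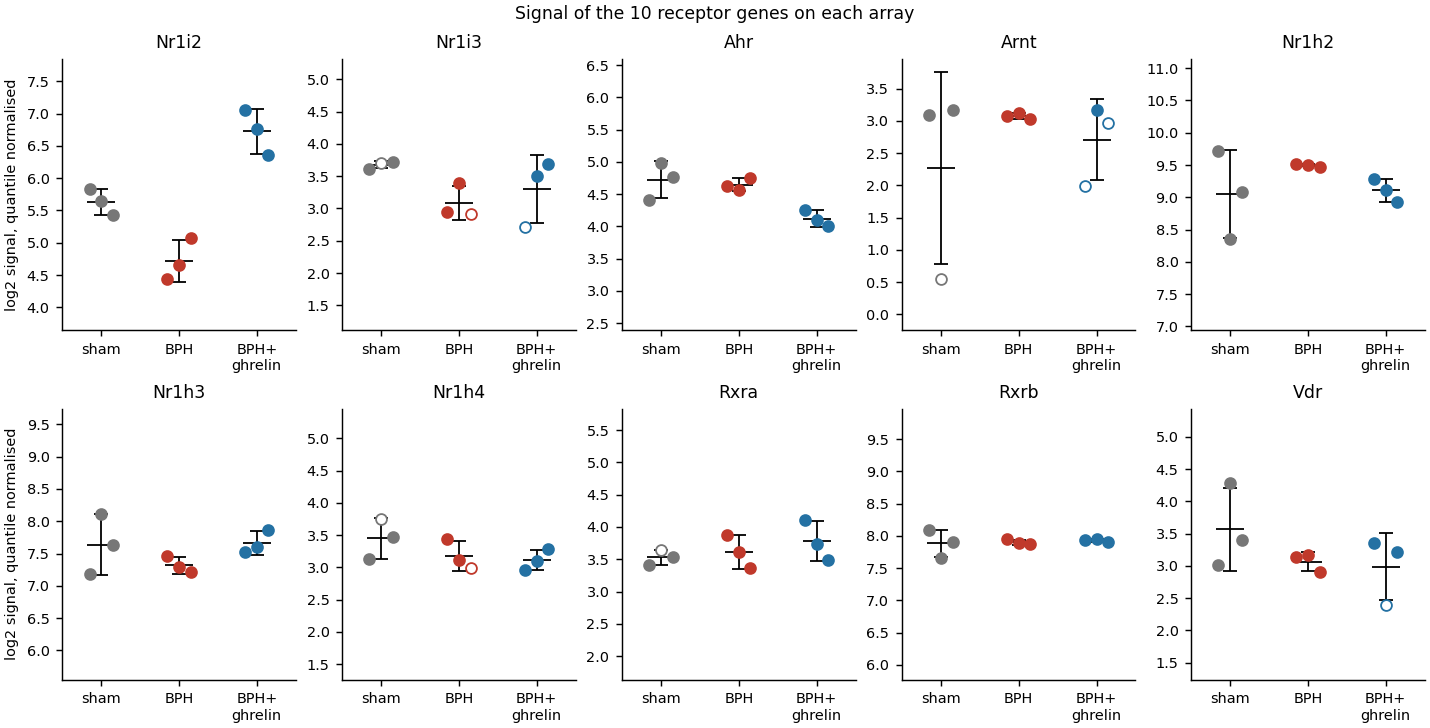
Log2 signal (quantile normalised) of the 10 receptor genes on each array, in panels that each span the same number of log2 units. Filled points are arrays on which the probe was well above background, open points are the others, and bars give mean ± SD of 3 arrays. Nr1i2 separates into 3 levels without overlap, whereas the other genes overlap between at least one pair of groups.

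The promoter windows of Nr1i2 and Ahr are shown because they are the genes whose BPH+ghrelin arrays overlapped with neither the BPH nor the sham arrays. The windows are from RefSeq (GRCr8) and hold 250 bases before and 50 bases after the annotated start, 5′ to 3′ on the strand of the gene. Capitals mark matches, on either strand, to AGTTCA (a motif bound by the pregnane X, constitutive androstane and vitamin D receptors), AGAACA (an androgen receptor motif), AGGTCA (the common nuclear receptor motif) and GCGTG (the core motif of the aryl hydrocarbon receptor). The window of Nr1i2 is chr11:75965467-75965766 on the plus strand, and that of Ahr is chr6:57998852-57999151 on the minus strand.
Nr1i2: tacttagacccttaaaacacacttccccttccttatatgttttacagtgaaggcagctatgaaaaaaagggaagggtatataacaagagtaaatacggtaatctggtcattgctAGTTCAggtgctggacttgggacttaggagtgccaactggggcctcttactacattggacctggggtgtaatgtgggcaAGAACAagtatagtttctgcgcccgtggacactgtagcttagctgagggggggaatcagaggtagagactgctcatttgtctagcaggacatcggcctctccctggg
Ahr: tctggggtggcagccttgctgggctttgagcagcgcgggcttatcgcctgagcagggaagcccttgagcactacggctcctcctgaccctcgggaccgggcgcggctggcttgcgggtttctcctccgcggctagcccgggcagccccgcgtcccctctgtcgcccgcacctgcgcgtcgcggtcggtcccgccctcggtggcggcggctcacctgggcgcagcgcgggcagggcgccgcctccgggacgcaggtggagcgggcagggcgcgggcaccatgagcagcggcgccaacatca
In the Nr1i2 window, AGTTCA began at base 115 (-136 from the start) and AGAACA at base 194 (-57 from the start), and the window held 4 CpG. The Ahr window held none of the 4 motifs and 37 CpG. A window was found for 9 of the 10 genes. AGTTCA was present in 2 of these 9 windows (Nr1i2 and Nr1h3) and in 14.5% of all 33469 windows. AGAACA was present in 1 of 9 and in 20.7% of all windows, GCGTG in 2 of 9 (Arnt and Vdr) and in 29.7%, and AGGTCA in 0 of 9 and in 16.2%. These are matches of letters and do not show binding.

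Ahr was lower in BPH+ghrelin than in both other groups, without overlap. Its log2 signal was 4.41, 4.98 and 4.77 in sham (4.72 ± 0.28; SD, n = 3), 4.63, 4.56 and 4.75 in BPH (4.65 ± 0.10; SD, n = 3) and 4.26, 4.10 and 4.01 in BPH+ghrelin (4.12 ± 0.13; SD, n = 3). The difference of BPH+ghrelin was -0.53 (standard error 0.16) to BPH and -0.60 (standard error 0.16, adjusted p 0.0689 in limma) to sham, so Ahr was not called against sham. It was called there with scaling to the 75th percentile (-0.75, adjusted p 0.0429) and without sham replicate 1 (-0.75, adjusted p 0.0285). Within scans, the differences of BPH+ghrelin were -0.39 to BPH and -0.64 to sham. With normexp, the difference was -0.10 to BPH and -0.13 to sham (adjusted p 0.248). Before normalisation, the signals were 23.9, 15.7 and 25.5 (sham), 36.0, 33.4 and 30.8 (BPH) and 18.4, 17.4 and 13.9 (BPH+ghrelin). Sham and BPH+ghrelin therefore overlapped on the raw scale. BPH and sham arrays overlapped (difference -0.07, 95% interval -0.45 to 0.30, adjusted p 0.794).

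Arnt, the partner of Ahr, showed no separation between groups. It was detected well above background on 6 of 9 arrays. The log2 signal was 3.09, 0.55 and 3.17 in sham, 3.07, 3.12 and 3.03 in BPH and 1.99, 3.17 and 2.97 in BPH+ghrelin. The low sham value came from sham replicate 2, the dimmest array. With it, BPH was 0.81 above sham (standard error 0.66, adjusted p 0.450 in limma), and without it the difference was -0.05. The difference of BPH+ghrelin minus sham likewise turned from 0.44 to -0.42 without that array.

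Nr1i3 was dim, with 6 of 9 arrays well above background, 2 in each group. Its log2 signal was 3.61, 3.71 and 3.72 in sham, 2.95, 3.39 and 2.92 in BPH and 2.71, 3.51 and 3.69 in BPH+ghrelin. All BPH arrays were below all sham arrays (difference -0.59, standard error 0.26, adjusted p 0.186 in limma), and the difference was not called. With scan as a fixed block it turned to 0.315 (adjusted p 0.971), and with scan as a random block it was -0.83 (adjusted p 0.0154). BPH+ghrelin arrays overlapped with both other groups, with differences of 0.21 (standard error 0.26; within scan 1 -0.38) to BPH and -0.38 (standard error 0.26, adjusted p 0.413) to sham.

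The mean differences of the liver X receptor genes between BPH+ghrelin and BPH had opposite signs, and no test was made. Nr1h2 had log2 signals of 9.52, 9.51 and 9.48 in BPH and of 9.29, 9.11 and 8.93 in BPH+ghrelin, a difference of -0.39 (standard error 0.30) without overlap. Its sham arrays spread more widely, at 9.72, 8.36 and 9.08, and overlapped with both other groups. Nr1h3 had log2 signals of 7.46, 7.29 and 7.21 in BPH and of 7.53, 7.59 and 7.87 in BPH+ghrelin, a difference of 0.35 (standard error 0.23) without overlap. The sham arrays of Nr1h3 (7.18, 8.11 and 7.63) covered the range of the other groups. Within scan 1 the differences were -0.21 for Nr1h2 and 0.21 for Nr1h3. Neither was called against sham, with adjusted p between 0.365 and 0.960 in limma over both comparisons. The raw signal of Nr1h3 was not higher in BPH+ghrelin (172, 198 and 207) than in BPH (273, 231 and 175). After normalisation to the 75th percentile, the difference was 0.28. In each group, the order of the arrays in Nr1h3 was that of the summed signal of 4 adipocyte genes (of 6 listed, with Lep well above background on 0 of 9 arrays and Plin1 without a matched probe), which was 4088 to 11828 in sham, 5384 to 7954 in BPH and 4297 to 10563 in BPH+ghrelin. None of the 4 was called, and their part in the values of Nr1h3 was not tested. Such a match arises easily, because sham replicate 3, BPH replicate 2 and BPH+ghrelin replicate 2 were in the middle for most probes. The share of all genes with this order was not determined, so the match does not link Nr1h3 to the adipocyte genes.

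Nr1h4 and Vdr were close to background. Nr1h4, well above background on 7 of 9 arrays, had log2 signals of 3.12, 3.76 and 3.47 in sham, 3.44, 3.11 and 2.99 in BPH and 2.96, 3.09 and 3.28 in BPH+ghrelin. Vdr, well above background on 8 of 9 arrays, had 3.02, 4.28 and 3.40 in sham, 3.13, 3.16 and 2.90 in BPH and 3.36, 2.39 and 3.21 in BPH+ghrelin. All 3 groups overlapped for both genes. The lowest signal well above background was 2.39 to 3.75, depending on the array, so differences of these genes are limited by background.

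The genes of the retinoid X receptors showed small differences. Rxrb, well above background on all arrays, had the narrowest range of the 10 genes over the arrays (0.43). Its log2 signals were 8.08, 7.66 and 7.91 in sham, 7.94, 7.89 and 7.87 in BPH and 7.93, 7.95 and 7.90 in BPH+ghrelin. The differences were 0.03 (standard error 0.13) between BPH+ghrelin and BPH, 0.02 (95% interval -0.28 to 0.32) between BPH and sham and 0.05 (-0.25 to 0.35) between BPH+ghrelin and sham. Rxra, well above background on 8 of 9 arrays, had 3.42, 3.64 and 3.53 in sham, 3.88, 3.61 and 3.36 in BPH and 4.11, 3.74 and 3.49 in BPH+ghrelin. The groups overlapped for Rxra, with differences of 0.16 (standard error 0.20), 0.09 (95% interval -0.36 to 0.53) and 0.25 (-0.20 to 0.70) in the same order. Like Nr1h4 and Vdr, Rxra was close to background, so its differences are limited by background as well.

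Between BPH+ghrelin and BPH, arrays were separated without overlap in 4 of the 10 genes (39.2% of all genes tested). These were Nr1i2 and Nr1h3 as higher (19.8% of all genes) and Ahr and Nr1h2 as lower (19.3% of all genes). Between BPH and sham, it applied to 2 of 10 (31.3% of all genes), with 0 higher (17.1% of all genes) and Nr1i2 and Nr1i3 lower (14.2% of all genes). Between BPH+ghrelin and sham, it applied to 2 of 10 (30.4% of all genes), with Nr1i2 higher (17.5% of all genes) and Ahr lower (12.8% of all genes). In BPH against sham, 0 of 10 were called in limma (4.33% of all genes), and 2 had an unadjusted p under 0.05 (26.5% of all genes), Nr1i2 and Nr1i3. In BPH+ghrelin against sham, 1 of 10 was called (6.3% of all genes), which was Nr1i2, and 2 had an unadjusted p under 0.05 (23.7% of all genes), Nr1i2 and Ahr. These shares are close to or below those of all genes, and Nr1i2 is the gene that was chosen for its difference. The median size of the difference, regardless of sign, was 0.28, 0.38 and 0.36 for the 10 genes and 0.27, 0.32 and 0.27 for all genes, in BPH+ghrelin against BPH, BPH against sham and BPH+ghrelin against sham. These comparisons share arrays pairwise and are not independent of each other.

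**Figure D2:**
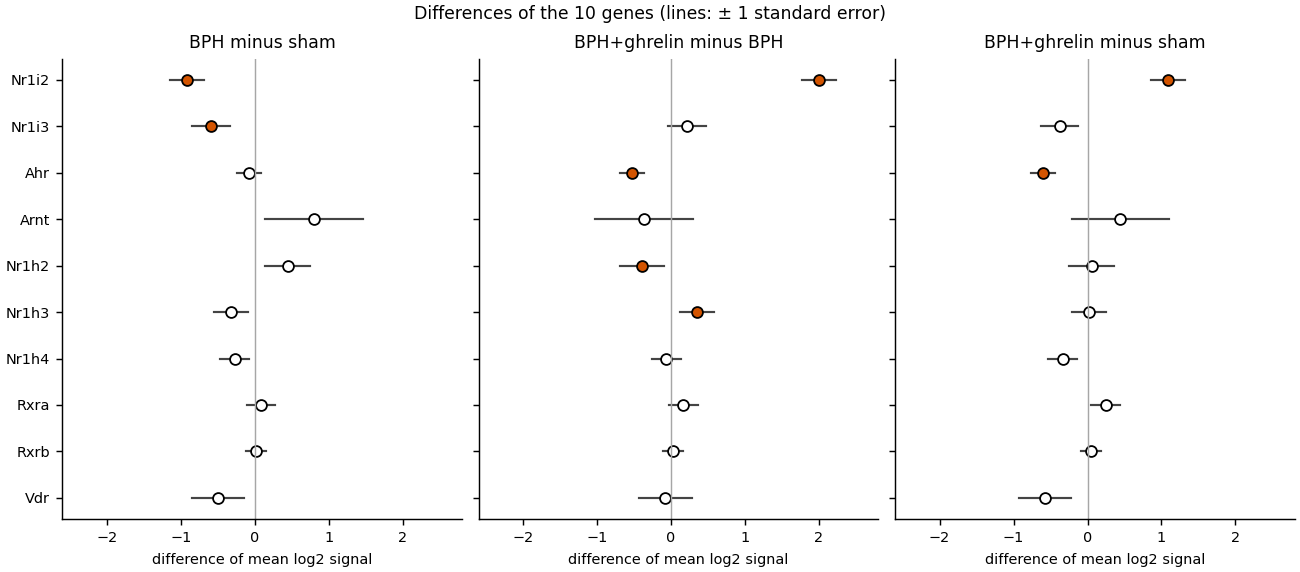
Differences of mean log2 signal of the 10 genes in the 3 comparisons. Horizontal lines span ± 1 standard error from limma. Orange points mark genes whose groups did not overlap, and white points the others. Nr1i2 lies at -0.91, 2.00 and 1.09 from left to right, and all other differences of BPH+ghrelin minus BPH are between -0.53 and 0.35.

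The differences of Nr1i2 under the 12 other settings and with 1 array left out are shown in the plot by setting. BPH+ghrelin minus sham ranged from 0.47 (normexp) to 1.27 and BPH minus sham from -1.51 (fixed scan block) to -0.29 (normexp).

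**Figure D3:**
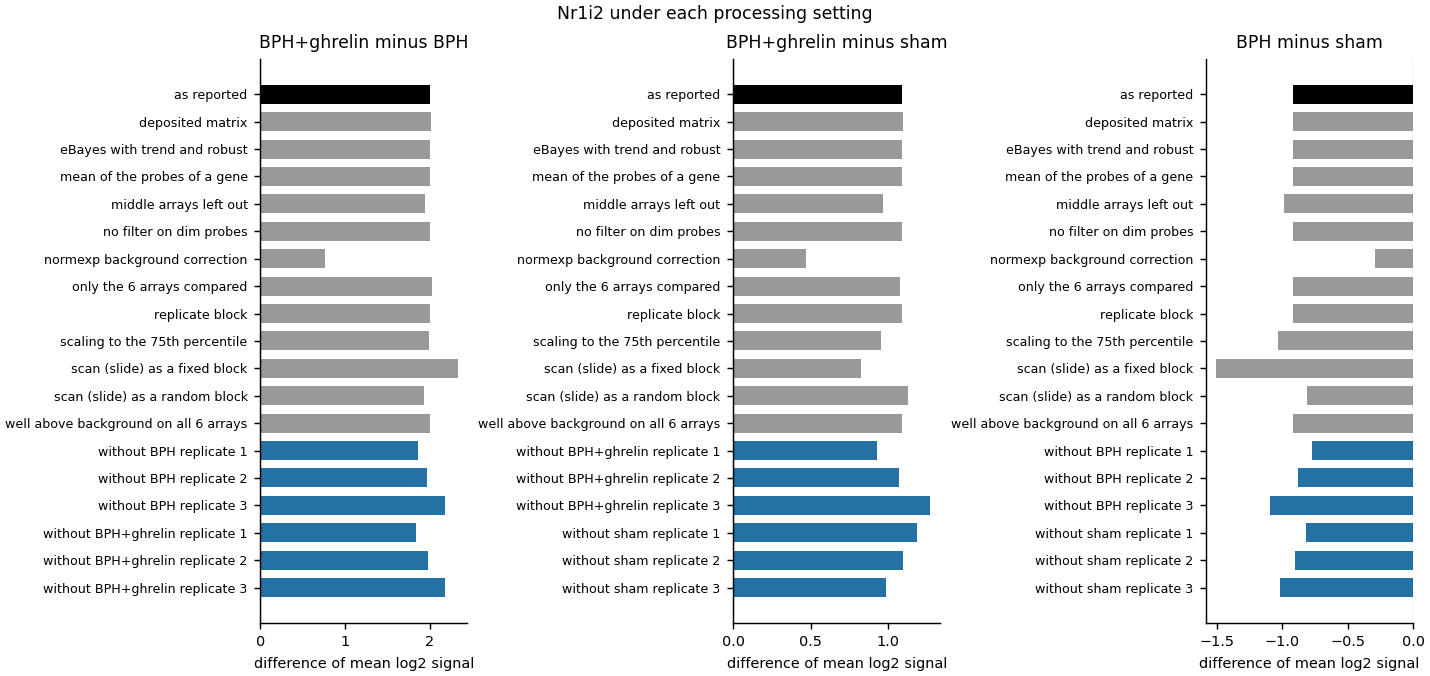
Difference of mean log2 signal of Nr1i2 in the 3 comparisons under each processing setting. The black bar is the value as reported, grey bars are other settings, and blue bars leave out 1 array. BPH+ghrelin minus BPH was 2.00 and fell to 0.77 with normexp background correction, while no setting changed a direction.

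Hepatocytes express Nr1i2 strongly, so their genes were examined beside it. Of 6 hepatocyte genes, 3 (Alb, Tat and Apob) were well above background on 0 of 9 arrays. The summed signal of the others (Apoa1, Ttr and Serpina1) was 53.6 to 57.1 in sham, 35.8 to 112 in BPH and 45.3 to 47.6 in BPH+ghrelin. BPH sums overlapped with both other groups, while BPH+ghrelin sums lay below sham without overlap. None of these 3 genes alone separated BPH+ghrelin from sham, and none was called. The sums hold dim values, as Apoa1 was well above background on 3 of 9 arrays and Serpina1 on 6 of 9.

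Genes of cell types of the prostate were examined as well. Summed signals of secretory epithelium genes (11 measured) were 553792 to 581628 in sham, 433341 to 453162 in BPH and 413792 to 424772 in BPH+ghrelin. The sum of 5 basal epithelium genes was 5312 to 7103 in BPH and 7317 to 7738 in BPH+ghrelin, compared to 4383 to 6188 in sham. The genes of this list went in different directions between BPH+ghrelin and BPH, with Krt15 (0.44) and Trp63 (0.16) higher and Krt5 (-0.65), Krt14 (-0.24) and Krt17 (-0.34) lower, and 0 of 5 were called. The sum of 6 smooth muscle genes was 10522 to 16413 in BPH and 7855 to 9730 in BPH+ghrelin, compared to 9595 to 16140 in sham. Of these 6, 1 was called between BPH+ghrelin and BPH, Myh11 (-0.96, adjusted p 0.0160 in limma). Without the 3 middle arrays, 0 of all genes were called in this comparison. The sum of 7 macrophage genes was 33779 to 41393 in sham, 38821 to 46225 in BPH and 34281 to 45247 in BPH+ghrelin, with 1 called between BPH+ghrelin and BPH, Mrc1 (-1.30). Genes of seminal vesicle and coagulating gland summed to 90286 to 157768 in sham, 715 to 28281 in BPH and 547 to 3881 in BPH+ghrelin. Of 6 measured, 3 were called lower than sham in BPH and 4 in BPH+ghrelin in limma. Svs5 (0.26 and 0.52) and Svs6 (1.27 and 0.32) were higher than sham in the mean, without a call. The part of all these cell types in the differences of Nr1i2 and Ahr was not tested. In these bulk samples, fewer cells of a type and less RNA per cell cannot be told apart.

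Genes that the receptors regulate or work with were examined in 7 lists with 94 genes, of which 84 had a probe. In BPH+ghrelin against BPH, 0 of 56 genes tested were called (1.48% of all genes) in limma, and 10 had an unadjusted p under 0.05 (21.1% of all genes). In BPH against sham, 3 of 57 were called (4.33% of all genes), and 18 had an unadjusted p under 0.05 (26.5% of all genes). In BPH+ghrelin against sham, 3 of 56 were called (6.3% of all genes), and 16 had an unadjusted p under 0.05 (23.7% of all genes). Without the 3 middle arrays, none of these calls was kept, with adjusted p of 0.427 to 0.722. That setting called 3 of all genes in BPH against sham and 2 in BPH+ghrelin against sham. The differences in BPH against sham were then 2.05 (Gstm1), -2.97 (Abcg5) and 0.80 (Hsp90aa1). Those in BPH+ghrelin against sham were 1.13 (Gstm1), -3.24 (Abcg5) and 0.65 (Fasn).

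Of 24 known target genes of the pregnane X and constitutive androstane receptors, 10 were well above background on 0 of 9 arrays, including the CYP3A drug oxidases Cyp3a23-3a1, Cyp3a2, Cyp3a18 and Cyp3a62, the transporter Abcc3 and the sulfotransferase Sult2a1. Another 2 (Cyp2b1 and Ugt1a1) were not matched to a probe by their symbol. Among the 12 tested, 8 were higher (51.7% of all genes) and 4 lower in BPH+ghrelin than in BPH, with a median difference of 0.16 (0.02 over all genes), and none was called. Gstm1, a glutathione transferase, was the gene of this list that was called. Its log2 signal was 10.67, 9.92 and 10.44 in sham, 12.67, 12.37 and 12.04 in BPH and 11.51, 11.47 and 11.35 in BPH+ghrelin. It rose in BPH against sham by 2.01 (standard error 0.22, adjusted p 0.00453) and in BPH+ghrelin against sham by 1.099 (standard error 0.22, adjusted p 0.0293). The first call was kept with any 1 array left out (adjusted p 0.0045 to 0.0363). It was lost with scan as a fixed block (difference 1.96, adjusted p 0.452), which called 2 of all genes in that comparison. No BPH array shared a scan with a sham array. The second call was lost without any 1 of the BPH+ghrelin arrays or without sham replicate 3 (adjusted p 0.0702 to 0.121). It was also lost with scan as a fixed block (difference 1.11, adjusted p 0.235) and with a replicate block (0.0518). BPH+ghrelin arrays of Gstm1 were below the BPH arrays (difference -0.92, adjusted p 0.0860), while those of Nr1i2 were above them. Aldh1a1, an enzyme of retinoic acid synthesis, had the highest difference of the list between BPH+ghrelin and BPH (1.37, standard error 0.72, adjusted p 0.309), with overlapping arrays. Cyp3a9, the CYP3A gene that was tested, was named after its values had been seen. It was higher in BPH than in sham without overlap (0.90, adjusted p 0.156) and had differences of -0.79 to BPH (adjusted p 0.241) and 0.10 to sham (adjusted p 0.890) in BPH+ghrelin.

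Of 9 target genes of the aryl hydrocarbon receptor, 8 had a probe and 5 to 6 were tested per comparison, of which none was called in the 3 comparisons. Cyp1a1, its best-known target, was well above background on 4 of 9 arrays (2 sham, 2 BPH and 0 BPH+ghrelin). It was 3.99, 2.97 and 3.59 in sham and 3.63, 2.96 and 1.42 in BPH (adjusted p 0.320). Cyp1a2 was detected on 5 of 9 arrays, including 1 sham array, and did not pass the test between BPH and sham (adjusted p 0.852). The quinone reductase Nqo1 had the lowest difference of BPH+ghrelin minus BPH (-0.64, standard error 0.25, adjusted p 0.203) and the aldehyde dehydrogenase Aldh3a1 the highest (0.78, standard error 0.29, adjusted p 0.181), and the arrays of both overlapped.

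Among 11 tested target genes of the liver X receptors, Abcg5 and Fasn were called. Abcg5, which together with Abcg8 exports sterols, had log2 signals of 6.72, 8.83 and 7.59 in sham, 5.74, 5.17 and 3.85 in BPH and 4.77, 4.33 and 4.28 in BPH+ghrelin. It fell in BPH (difference -2.79, standard error 0.60, adjusted p 0.0422) and in BPH+ghrelin (-3.25, standard error 0.60, adjusted p 0.0216) compared to sham. With normexp the differences were -1.48 and -1.64, and with scan as a fixed block they were -3.32 and -3.47. The first call was lost without BPH replicate 2 or 3 or sham replicate 2 or 3 (adjusted p 0.0596 to 0.150), without a filter (0.0639), with only the 6 arrays (0.123), with a replicate block (0.0824) and with scan as a fixed block (0.674), and the second without any 1 of the BPH+ghrelin arrays or without sham replicate 3 (adjusted p 0.0590 to 0.0970) or with scan as a fixed block (0.181). Abcg8 itself was not detected above background (0 of 9 arrays). Fasn, the fatty acid synthase, was 12.44, 12.08 and 12.42 in sham, 12.81, 12.69 and 12.52 in BPH and 12.98, 12.88 and 12.85 in BPH+ghrelin. It rose in BPH+ghrelin against sham by 0.59 (standard error 0.14, adjusted p 0.0494), and the call was kept only without sham replicate 1 when 1 array was left out (adjusted p 0.0471, otherwise 0.0531 to 0.164). It was lost without a filter (0.0737), with a replicate block (0.0897), only the 6 arrays (0.0774) and scan as a fixed (0.286) or random (0.0508) block. With scan as a fixed block the difference of Fasn was 0.60. Its difference between BPH+ghrelin and BPH was 0.23 (adjusted p 0.388). The lipase Lpl had the lowest difference of the list between BPH+ghrelin and BPH (-1.40, standard error 0.86, adjusted p 0.379). The median of the 11 genes was 0.52 in BPH against sham and -0.43 in BPH+ghrelin against BPH, compared to 0.04 and 0.02 over all genes.

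No target gene of FXR (6 tested) or of the vitamin D receptor (3 to 4 tested) was called. The bile acid transporter Slc10a1, listed with FXR, was 6.50, 8.46 and 7.29 in sham, 5.65, 5.70 and 5.87 in BPH and 6.62, 6.85 and 7.22 in BPH+ghrelin. All BPH arrays were below those of both other groups (-1.68 to sham, standard error 0.43, adjusted p 0.0662, and BPH+ghrelin 1.16 above BPH, standard error 0.43, adjusted p 0.183). Nr0b2, a repressor induced by FXR, was 3.85, 3.52 and 3.40 in BPH and 2.42, 3.66 and 3.48 in BPH+ghrelin (adjusted p 0.600), with 2 of the 3 BPH+ghrelin arrays well above background. The bile salt pump Abcb11 was 3.91, 3.89 and 3.74 in BPH and was well above background on 1 of 3 sham arrays, so no size is given for its difference (adjusted p 0.0573). In the vitamin D list, Cyp24a1, the enzyme that degrades vitamin D, was well above background on 0 of 9 arrays. Cyp27b1, the enzyme that activates it, differed by 0.30 between BPH+ghrelin and BPH (adjusted p 0.590). Cd14 differed by -0.83 in the same comparison (adjusted p 0.160) and by 0.67 between BPH and sham (adjusted p 0.183), and Spp1 by -0.22 between BPH and sham (adjusted p 0.516).

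Of the other dimer partners, 10 were tested and none was called. Pparg, the master regulator of fat cells, was 4.96, 6.77 and 5.67 in sham, 7.24, 6.51 and 5.97 in BPH and 3.91, 5.66 and 6.66 in BPH+ghrelin (BPH+ghrelin minus BPH -1.17, standard error 0.72, adjusted p 0.383). Within each group, the order of the arrays in Pparg and Lpl was also that of the summed adipocyte genes, whose part in these values was not tested. Genes often share such an order, as each group held an array between the other 2 at most probes. Ppard differed by 0.13 between BPH+ghrelin and BPH (adjusted p 0.702) and Rara by -0.33 between BPH and sham (adjusted p 0.247). Ppara was 3.36, 0.59 and 3.32 in sham and 3.35, 3.20 and 3.19 in BPH (adjusted p 0.465), and the low value came from sham replicate 2, the dimmest array.

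Chaperones that hold the receptors in the cytosol, and coregulators, formed the last list. Hsp90aa1, an HSP90 chaperone, was 12.78, 12.75 and 12.77 in sham, 13.18, 13.76 and 13.96 in BPH and 13.14, 13.11 and 13.11 in BPH+ghrelin. It rose in BPH against sham by 0.86 (standard error 0.19, adjusted p 0.0455). In BPH+ghrelin it was between both other groups, with differences of -0.51 to BPH (adjusted p 0.182) and 0.35 to sham (adjusted p 0.302). The call in BPH against sham was lost without BPH replicate 2 or 3 or sham replicate 2 or 3 (adjusted p 0.0673 to 0.189). It was also lost with the 75th percentile (difference 0.59, adjusted p 0.127), the mean of the probes of the gene (0.0545) and no filter (0.0661). Only the 6 arrays (0.133), a replicate block (0.0891) and scan as a fixed block (difference 0.83, adjusted p 0.794) ended it too. Of the 9 genes tested in BPH+ghrelin against BPH, 8 were lower and 1 higher, while 51.7% of all genes were higher. Ppargc1a, a coactivator, was well above background on all 3 BPH arrays (4.09, 4.02 and 4.11) and on 1 BPH+ghrelin array (3.41). It had the lowest fitted difference of the list, whose size is not given because the other BPH+ghrelin arrays did not measure the gene above background.

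**Figure D4:**
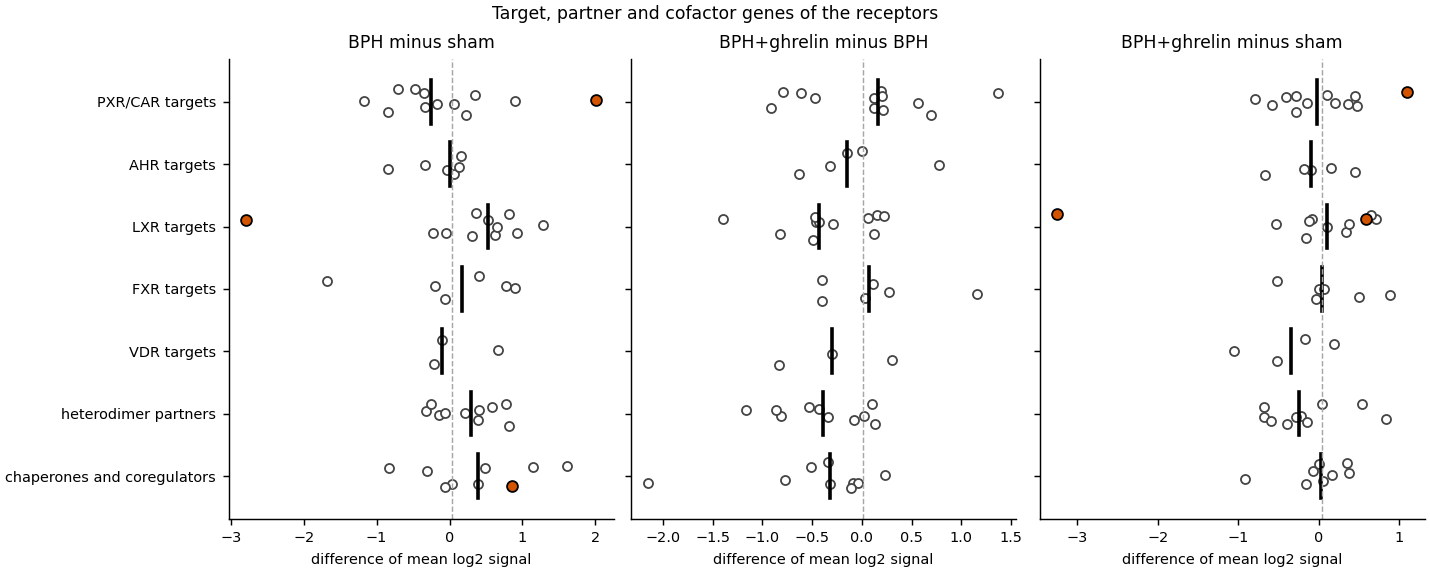
Differences of mean log2 signal of the genes in the 7 lists, 1 point per gene tested. Orange points were called in limma, white points were not, thick bars are medians of the lists, and the dashed line is the median of all genes. Gstm1 (2.01) and Abcg5 (-2.79) lie farthest from 0 in BPH minus sham, and no point is orange in BPH+ghrelin minus BPH.

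The genes most similar to Nr1i2 over the 9 arrays were selected by Pearson's r among 11781 genes. They were Slc11a2 (r = 0.973), an importer of iron and other metals, Tmem184a (0.967), Slc29a2 (0.965), a nucleoside transporter, Miga2 (0.961), a protein of the mitochondrial outer membrane, and Unc119b (0.959). An r of at least 0.9 was found for 53 genes. The r values describe 9 arrays in 3 groups, which share scans and normalisation, and genes were selected by them. Among the other receptors, r with Nr1i2 ranged from -0.66 (Ahr) to 0.33 (Nr1h3). Slc11a2 had group means of 9.30 in sham, 9.00 in BPH and 9.94 in BPH+ghrelin, and Unc119b of 12.21, 12.08 and 12.32. In all 5 genes, BPH arrays were lowest and BPH+ghrelin arrays highest without overlap between groups, and the difference of BPH+ghrelin minus BPH was 0.24 (Unc119b) to 0.94 (Slc11a2), less than the 2.00 of Nr1i2.

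**Figure D5:**
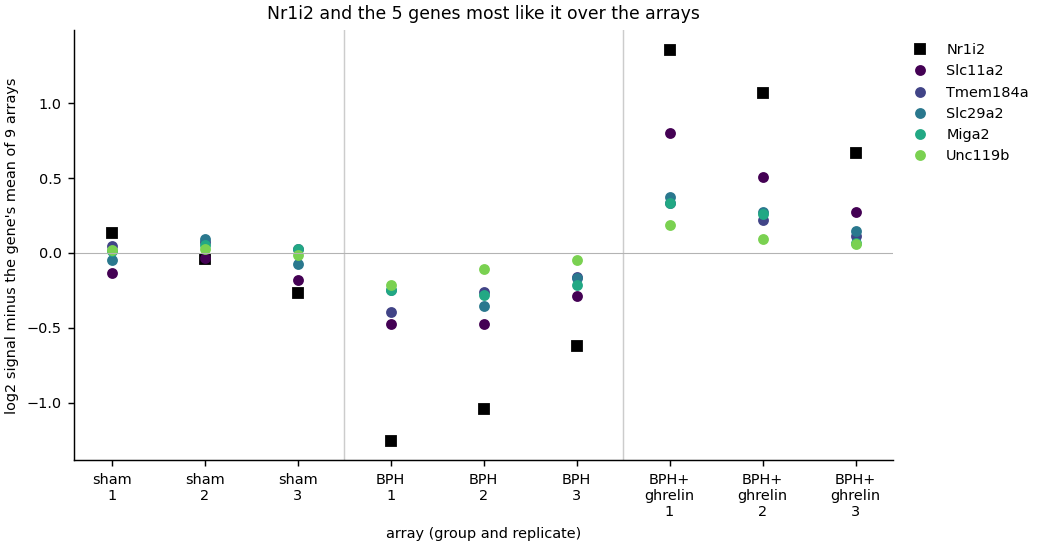
Log2 signal of Nr1i2 (squares) and of the 5 genes with the highest r to it (circles) on the 9 arrays, each minus the mean of that gene over the arrays. BPH arrays lie below and BPH+ghrelin arrays above 0 for all 6 genes, and Nr1i2 has the widest span (4.44 to 7.05 as log2 signal).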

How the data were processed

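The authors deposited scanner output for 9 single-colour Agilent arrays, as intensities after background subtraction and detrending by the scanner software, not normalised between arrays. They also deposited a matrix of quantile normalised log2 values (lowest value 2.32), used here as an alternative. Outlier spots were removed, spots of a probe were averaged (11 of 30367 probes were dropped), and log2 intensities were quantile normalised, as in the methods of the study. Symbols came from RefSeq (GRCr8) by accession, for 59.3% of the probes. Probes without a symbol were grouped by their identifier on the array, and each identifier counted as a gene in ranks and shares of all genes. The array annotation belongs to another build (rn4). Each gene was represented by its passing probe of highest mean signal. Groups came from the sample labels and were compared with limma 3.58.1 in R 4.3.3 (lmFit and eBayes, 3 groups, 9 arrays), tested on simulated data. A 2-fold criterion without a test was used in the study.

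The members and lists were chosen with earlier results of these data known. Genes of a list were named if called (up to 4 per direction), or, where none was called, as the highest and lowest difference of BPH+ghrelin minus BPH and of BPH minus sham, and the 5 genes with the highest r to Nr1i2 were named. Alternatives were the 75th percentile, normexp (offset 50, on median signals as mean signals were not used here), other filters, probe means, replicate and scan blocks, the deposited matrix, other variance models and fewer arrays. The number of arrays limits the precision. Some genes are not reported here.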

Additional observations from a re-analysis of the deposited data

How the results depend on the processing

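The difference of Nr1i2 between BPH+ghrelin and BPH (2.00) was 0.77 with normexp, 2.33 with scan as a fixed block, and 1.84 to 2.19 with 1 array left out. Of the 10 receptor genes, those called in BPH against sham (0) were 1 with the 75th percentile, 1 with the filter on all 6 arrays, 2 with scan as a random block, and 0 with 1 array left out. Those called in BPH+ghrelin against sham (1) were 0 without a filter, with only the 6 arrays, with scan as a fixed block and without the 3 middle arrays (an alternative chosen after seeing the data), 2 with the 75th percentile, and 0 to 2 with 1 array left out. Calls among the listed genes in BPH against sham (3) were 1 without a filter and with only the 6 arrays, 0 with scan as a fixed block and without the middle arrays, 21 with scan as a random block, and 1 to 10 with 1 array left out. In BPH+ghrelin against BPH (0) they were 3 with only the 6 arrays and with scan as a random block, and 0 with 1 array left out. In BPH+ghrelin against sham (3) they were 5 with trend and robust variance, 5 with the filter on all 6 arrays, 6 with the 75th percentile, 0 with scan as a fixed block and without the middle arrays, and 0 to 5 with 1 array left out. The cause was not tested.

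Replicate numbers did not pair the arrays (correlations of deviations between arrays of the same number -0.143 to 0.262). With a replicate block, 0 of the 10 receptor genes were called in BPH against sham and 0 in BPH+ghrelin against sham, and 0, 1 and 1 listed genes in BPH+ghrelin against BPH, BPH against sham and BPH+ghrelin against sham. Over all genes, the block gave 17, 243 and 461 calls in place of 293, 847 and 1210, in the same order.

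Over all genes, calls were 2106, 180 and 909 with only the 6 arrays, 2, 2 and 84 with scan as a fixed block, 1830, 7088 and 1229 with scan as a random block, 195, 533 and 803 without a filter, 517, 898 and 1327 with the 75th percentile, and 0, 3 and 2 without the middle arrays. With 1 array left out they were 3 to 398, 119 to 3071 and 222 to 1926. With the 75th percentile, genes higher among those called went from 98 to 244 in BPH+ghrelin against BPH and from 421 to 287 in BPH against sham, where the median of all genes went from 0.04 to -0.09.

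Some differences of the receptor genes turned their sign. None of the turned differences against sham was called as reported or after the turn, although Nr1i3 in BPH against sham was called with scan as a random block. With the 75th percentile the values after the turn were -0.18 for Rxra in BPH against sham, -0.044 for Nr1h3 and -0.0087 for Rxrb in BPH+ghrelin against sham, and 0.14 for Nr1h4, 0.14 for Vdr and -0.031 for Rxrb in BPH+ghrelin against BPH. Nr1h3 also turned with normexp (-0.017) and Arnt with the deposited matrix (-0.076), both against sham in BPH+ghrelin, and Nr1h4 turned with normexp (0.0099) in BPH+ghrelin against BPH. With scan as a fixed block they were 0.315 for Nr1i3 (reported as -0.59) and -0.41 for Rxra in BPH against sham, -0.022 for Nr1h2 in BPH+ghrelin against sham, and -0.38 for Nr1i3 and 0.30 for Vdr in BPH+ghrelin against BPH. Vdr was also 0.27 there without the middle arrays. With 1 array left out, differences of BPH minus sham were -0.23 to 0.055 (Ahr), -0.054 to 1.26 (Arnt), -0.045 to 0.22 (Rxra) and -0.094 to 0.12 (Rxrb). Those of BPH+ghrelin minus sham were -0.42 to 0.89 (Arnt), -0.29 to 0.39 (Nr1h2), -0.21 to 0.26 (Nr1h3) and -0.067 to 0.15 (Rxrb). In BPH+ghrelin minus BPH, Nr1h4, Vdr and Rxra also turned, to at most 0.061, 0.22 and -0.0026. Of these 10 genes, 5 were not well above background on at least 1 array, and their differences are limited by background.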
